A study of Homo sapiens with 6 samples.

Results

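The proteasome genes were selected by symbol, as the non-control probe sets that the authors' annotation assigns to PSMA, PSMB, PSMC, PSMD, PSME, PSMF or PSMG followed by a digit. The rule took 49 of the 20363 gene symbols on the array, in 55 of 28869 non-control probe sets. Among them 5 were empty on all 6 arrays (2 of 3 probe sets each for PSMB8 and PSMB9, and 1 of 2 for PSMC1), which left 50 with values. PSMC3IP met the rule by its letters alone, since it encodes a recombination factor that binds the ATPase PSMC3 and is no part of the proteasome, and its change was 0.01 (SE 0.092, limma adjusted p = 0.985). The other 49 probe sets stood for 48 genes and are described below. No filter on low values was applied to them.

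The arrays held RNA of MDA-468.shp53, a breast cancer cell line whose name points to MDA-MB-468 with a short hairpin RNA against p53, the tumour suppressor that this line carries in mutant form. All cells were grown in 3-dimensional culture for 8 days, either with doxycycline (+DOX), which switches on hairpins of this kind, or without it (-DOX). There were 3 independent experiments with 1 array of each group in each, and no group of cells with drug and no hairpin was analysed here, so the drug and the hairpin cannot be told apart. The line is a single cell line, and the labels say nothing of how many clones it represents. Arrays correlated at 0.991 to 0.997 within a group and at 0.983 to 0.991 between groups over the tested probe sets, and array medians lay between 7.45 and 7.56 on the log2 scale. Epithelial markers such as KRT5 (13.20 ± 0.09 without and 13.23 ± 0.13 with doxycycline, mean ± SD, n = 3 each) and EPCAM (12.16 ± 0.09 and 12.13 ± 0.05) were bright, whereas the leukocyte gene PTPRC (4.23 ± 0.13 and 4.15 ± 0.07) was dim. The summed log2 values of 4 leukocyte markers ranged from 28.783 to 29.6 without and from 27.9 to 28.79 with doxycycline, and so only just overlapped. CD14 was the member of that list that fell (-0.65, SE 0.083, limma adjusted p = 0.0035), a call lost without pairing. For 7 epithelial markers the sums were 87.3 to 88.2 and 86.3 to 87.2, which did not overlap, with KRT8 the member that fell (-0.63, SE 0.089). For 3 endothelial and 3 fibroblast markers, none of which passed, the ranges overlapped as well. The part of these markers in the results below was not tested.

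The proteasome degrades proteins tagged with ubiquitin. Its core is a barrel of alpha rings, which form the gate, and beta rings, of which PSMB5, PSMB6 and PSMB7 carry the cutting sites. A regulatory particle caps the barrel, with a base of ATPases that unfold the substrate and a lid that removes the ubiquitin chain. After interferon, cells replace the cutting subunits by PSMB8, PSMB9 and PSMB10, which gives the immunoproteasome, and make the activators PSME1 and PSME2, both of which serve antigen presentation. Mutant p53 has been reported to raise the transcription of proteasome genes, together with the transcription factor NFE2L2, and NFE2L1 is known to restore proteasome genes when the proteasome is inhibited.

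Few proteasome genes changed with doxycycline, and none by as much as 1.5-fold. With the test fitted over all 28026 probe sets, 5 of the 49 probe sets passed an adjusted p of 0.05 (10.2%), 4 higher and 1 lower, where the whole array had 12.8% passing (6.14% higher and 6.63% lower). Higher were the lid subunits PSMD14 and PSMD6, the assembly chaperone PSMG1 and the activator PSME4, and lower was the immunoproteasome subunit PSMB9. The median change over the 49 was 0.05 on the log2 scale against -0.01 over all probe sets, and the changes ran from -0.39 to 0.41. The 95% interval of the change lay above a 1.5-fold fall for 48 of the 49 and below a 1.5-fold rise for 47. At an unadjusted p under 0.05 there were 13 (26.5%, against 24.5% of all probe sets). The share of proteasome probe sets past the adjusted threshold was thus below that of the array, and the unadjusted share was close to it. Arrays of bulk RNA measure the average of all cells, so fewer cells expressing a gene and less of its RNA per cell cannot be told apart.

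**Figure D1:**
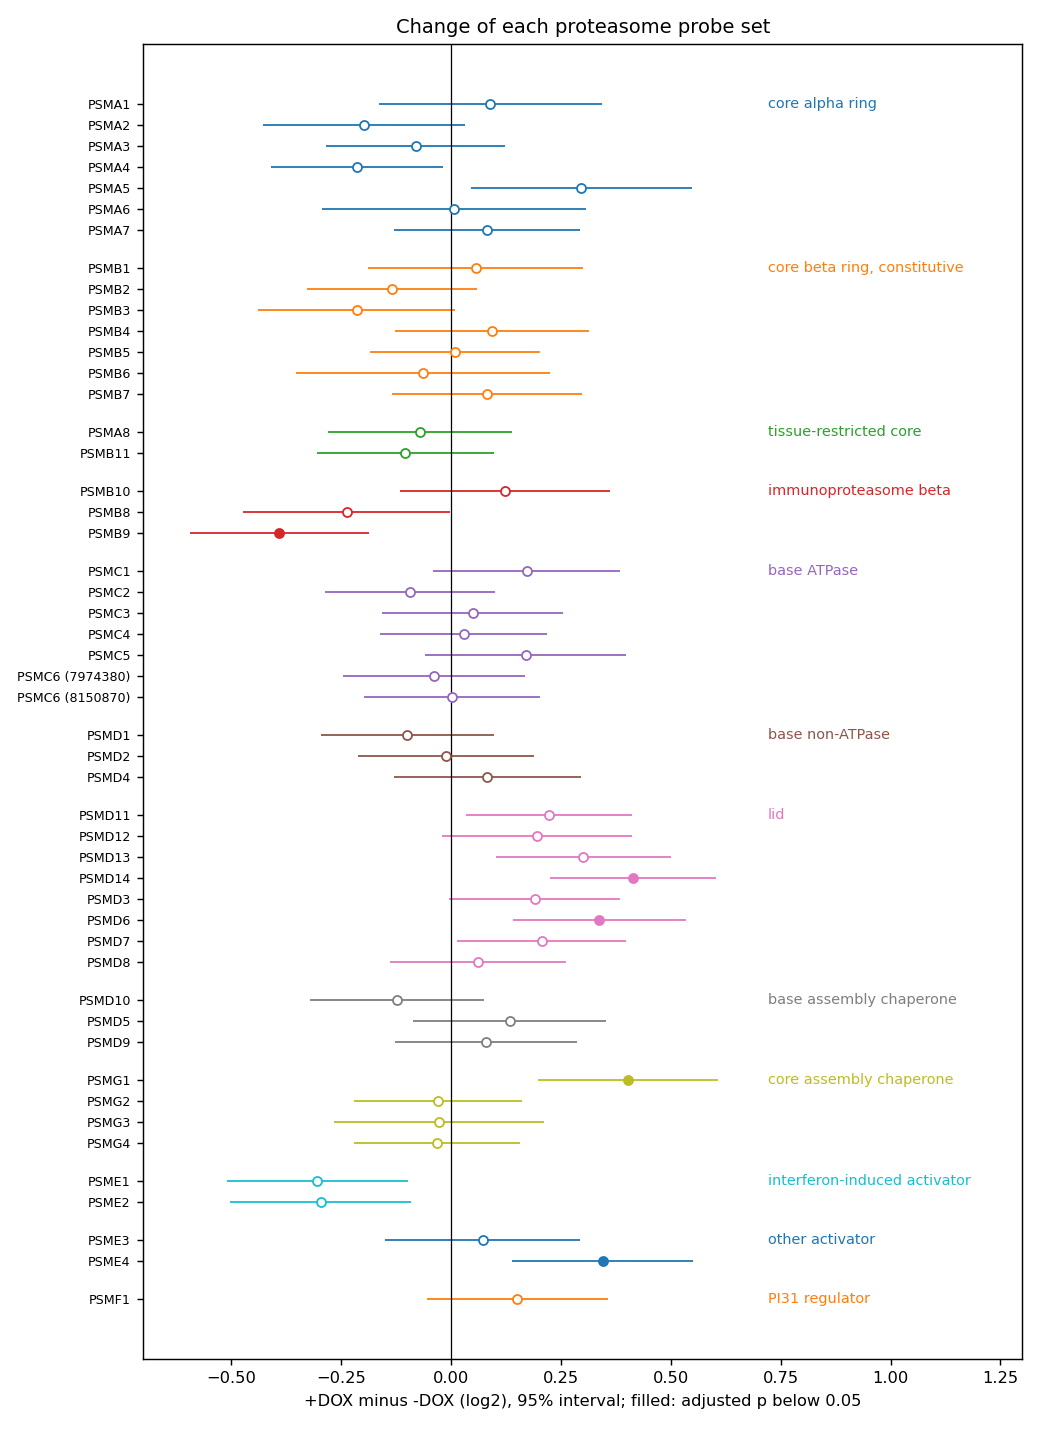
Change of each of the 49 proteasome probe sets (x axis, treated minus untreated, log2) with its 95% interval from limma, grouped by role; filled points passed an adjusted p of 0.05. All 8 lid points of the symbol rule lie right of 0, the core and base points lie on both sides, and PSMB9, PSME1 and PSME2 lie farthest to the left.

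The lid was the subcomplex with the highest median change. All 8 lid probe sets of the symbol rule had a positive change, from 0.06 to 0.41 with a median of 0.21. Of them 7 had it in all 3 experiments (87.5%, against 42.6% of all probe sets with the same sign in each experiment). The lid subunit SEM1 falls outside the rule and is left out of the lid values here. It was lower on the treated array of each experiment (-0.23, limma adjusted p = 0.189). The lid median was 0.25, 0.20 and 0.29 in experiments 1, 2 and 3. PSMD14 is the metalloprotease that cleaves the ubiquitin chain off the substrate. Its untreated arrays read 10.41, 10.67 and 10.54 (log2) in experiments 1, 2 and 3 and its treated arrays 10.86, 11.08 and 10.93. Each treated array was above each untreated one, and the rise was 1.33-fold (0.41 on the log2 scale, SE 0.081, limma adjusted p = 0.0166). PSMD6, a lid scaffold subunit, stood at 8.56, 8.93 and 8.78 without doxycycline and at 8.94, 9.18 and 9.17 with it. Here too the groups did not overlap, though the lowest treated array exceeded the highest untreated one by little (change 0.34, SE 0.084, limma adjusted p = 0.0399). In NCBI build 36 the PSMD14 probe set spans chr2:161872795-161976472 and the PSMD6 probe set chr3:63971271-63984698.

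The other 6 lid genes did not pass the threshold. They were the structural subunits PSMD13 (0.30, SE 0.085, limma adjusted p = 0.0616), PSMD11 (0.22), PSMD7 (0.21), PSMD12 (0.20), PSMD3 (0.19) and PSMD8 (0.06). PSMD7, the catalytically silent partner of PSMD14, stood at 11.54, 11.77 and 11.64 without and at 11.69, 12.01 and 11.86 with doxycycline. PSMD13 passed when dim probe sets were left out before adjustment (adjusted p = 0.0479). In the lid 3 of 8 genes had groups that did not overlap, all with treated arrays above (37.5%, against 11.4% of all probe sets, and 24.9% in either direction), the third being PSMD3. No test of the lid as a whole was made, since its genes are not replicates.

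The promoters of the lid pair that rose are shown because letters of known motifs can be read in them. They are RefSeq sequences of GRCh38.p14, with 250 bases before and 50 after the start, for PSMD14 at chr2:161308175-161308474 (plus strand) and PSMD6 at chr3:64023445-64023744 (minus strand). Capitals mark matches to CCAAT on either strand, and in PSMD14 the matches on opposite strands overlap.
PSMD14: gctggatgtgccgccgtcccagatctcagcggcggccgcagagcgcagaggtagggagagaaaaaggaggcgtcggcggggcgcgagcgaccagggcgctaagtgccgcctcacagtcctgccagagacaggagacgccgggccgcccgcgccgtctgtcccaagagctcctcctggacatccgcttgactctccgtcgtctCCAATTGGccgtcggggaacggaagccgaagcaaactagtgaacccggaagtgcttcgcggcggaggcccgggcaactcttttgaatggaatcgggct
PSMD6: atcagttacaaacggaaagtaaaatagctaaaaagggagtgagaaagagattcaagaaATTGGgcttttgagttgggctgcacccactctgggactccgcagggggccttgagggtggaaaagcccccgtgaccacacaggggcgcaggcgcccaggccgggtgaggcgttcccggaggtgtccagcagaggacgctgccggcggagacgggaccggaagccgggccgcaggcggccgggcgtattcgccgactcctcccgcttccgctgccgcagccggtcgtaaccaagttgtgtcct
A promoter was listed for 42 of the 48 genes, and for the 8 genes with more than 1 the first listed was read. CCAAT on either strand occurred in 45.2% of the 42 and in 34.6% of all 35116 promoters of the table. Here and below, the share over all counts each listed promoter and that of the 42 counts 1 per gene, so the shares are not strictly alike. The core of the antioxidant response element bound by NFE2L1 and NFE2L2, searched as TGACNNNGC on both strands, occurred in 31.0% of the 42 and in 13.3% of all. It was found in neither lid promoter above, but occurred in those of the lid genes PSMD3 and PSMD12, which did not pass. Among its 13 carriers PSMG1 and PSME4 rose and PSMB9 fell, and the others, PSME1 and PSME2 among them, did not pass. The part of this motif in the changes was not tested.

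The constitutive core showed no call. Of the 7 alpha and 7 beta genes, 8 had a positive change and 6 a negative one, with a median of 0.01, and the core median was -0.14, -0.04 and 0.02 in experiments 1, 2 and 3. PSMB5, which carries the chymotrypsin-like site that proteasome inhibitors block, stood at 10.50, 11.13 and 11.03 without and at 10.49, 11.21 and 10.99 with doxycycline. Experiment 1 was low in both groups, and the change was 0.01 with a 95% interval from -0.18 to 0.20. For PSMB6, the caspase-like subunit, the untreated values were 12.22, 12.26 and 12.37 and the treated ones 11.95, 12.55 and 12.15 (change -0.06, interval -0.35 to 0.22). PSMB7, the trypsin-like subunit, gave 10.50, 10.90 and 10.62 against 10.61, 10.82 and 10.83 (change 0.08, interval -0.13 to 0.30). Groups overlapped for all 3 cutting subunits.

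Among the gate-forming alpha genes, PSMA5 had the highest change (0.30, SE 0.108, limma adjusted p = 0.132) and PSMA4 the lowest (-0.21, SE 0.084, limma adjusted p = 0.164). PSMA2 was at -0.20, PSMA1 at 0.09, PSMA7 at 0.08, PSMA3 at -0.08 and PSMA6 at 0.01. Of the structural beta genes, PSMB3 was at -0.22, PSMB2 at -0.13, PSMB4 at 0.09 and PSMB1 at 0.06. PSMA8, the testis form of an alpha subunit, and PSMB11, the thymus form of a beta subunit, were dim at 4.63 ± 0.09 and 6.10 ± 0.08 without doxycycline (mean ± SD, n = 3) and changed by -0.07 and -0.10 without passing.

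The base showed no call either. Its 10 probe sets had a median of 0.02 and ran from -0.10 to 0.17. Those of the ATPases lay between -0.09 (PSMC2) and 0.17 (PSMC1), with PSMC5 at 0.17, PSMC3 at 0.05 and PSMC4 at 0.03. The scaffold subunits PSMD1 and PSMD2 were at -0.10 and -0.01 and the ubiquitin receptor PSMD4 at 0.08. All 10 intervals lay within 0.5 of 0. For PSMC1 the value comes from a probe set at chr3:68767526-68769112 (NCBI build 36), since the one on chromosome 14 was empty, and near-identical copies cannot be told apart by its probes. Both probe sets annotated to PSMC6, on different chromosomes, gave changes of -0.04 and 0.00.

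Of the 3 immunoproteasome genes PSMB9 fell, and PSMB8 and PSMB10 did not pass. PSMB9, whose subunit replaces PSMB6, stood at 8.82, 9.40 and 9.20 without doxycycline and at 8.56, 8.95 and 8.74 with it. It was lower on the treated array of each experiment, but the groups overlapped because experiment 1 was low in both (1.31-fold lower, log2 change -0.39, SE 0.087, limma adjusted p = 0.0265). The call rested on pairing within experiments and was lost without it (adjusted p = 0.221). PSMB8, which replaces PSMB5, gave 8.86, 9.14 and 8.83 against 8.51, 8.78 and 8.83, lower by a margin in experiments 1 and 2 and level in experiment 3, with groups that only just did not overlap (change -0.24, SE 0.101, limma adjusted p = 0.2). PSMB10, which replaces PSMB7, gave 7.90, 8.33 and 8.18 against 8.22, 8.23 and 8.33 with a change of 0.12 that did not pass (adjusted p = 0.585). The values of PSMB8 and PSMB9 come from probe sets placed on an alternate haplotype of chromosome 6, those on the main chromosome being empty.

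The activators PSME1 and PSME2 form 1 ring that opens the core, and interferon is known to induce both. PSME1 stood at 10.55, 10.73 and 10.84 without and at 10.15, 10.55 and 10.50 with doxycycline, and PSME2 at 9.94, 9.89 and 9.90 against 9.54, 9.72 and 9.58. Both were lower on the treated array of each experiment, and for PSME2 the groups did not overlap (4.08% of the 49 were below in this way, against 13.5% of all probe sets). The changes of -0.30 (SE 0.088) and -0.30 (SE 0.088) did not pass (limma adjusted p = 0.0655 and 0.0715). PSME1 passed with trended and robust variance (adjusted p = 0.0410) and without dim probe sets (adjusted p = 0.0491).

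Promoters of PSMB9, PSME1 and PSME2 are shown because these genes were lower on the treated array of each experiment and interferon is known to induce them. Their RefSeq windows in GRCh38.p14 are chr6:32853942-32854241 (plus strand), chr14:24135944-24136243 (plus strand) and chr14:24146561-24146860 (minus strand). Capitals mark TGACNNNGC, CCAAT or GAAA followed by NN and GAAA, the core of the interferon-stimulated response element, on either strand, with no overlap between motifs. The last of these was found in the PSME1 and PSME2 windows but not in that of PSMB9. It occurred in 14.3% of the 42 proteasome promoters against 3.57% of all. It was also in the windows of PSMB10 (change 0.12), PSMA4 (-0.21), PSMB4 (0.09) and PSMG4 (-0.03), none of which passed. The window of PSMB8, a gene lower in each experiment but nearly level in experiment 3, held none of the motifs searched.
PSMB9: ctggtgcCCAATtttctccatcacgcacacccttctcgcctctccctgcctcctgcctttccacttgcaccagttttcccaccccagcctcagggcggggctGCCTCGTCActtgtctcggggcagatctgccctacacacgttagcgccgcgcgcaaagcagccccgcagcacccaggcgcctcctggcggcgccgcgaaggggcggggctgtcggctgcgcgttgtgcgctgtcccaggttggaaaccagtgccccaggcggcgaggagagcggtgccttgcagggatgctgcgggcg
PSME1: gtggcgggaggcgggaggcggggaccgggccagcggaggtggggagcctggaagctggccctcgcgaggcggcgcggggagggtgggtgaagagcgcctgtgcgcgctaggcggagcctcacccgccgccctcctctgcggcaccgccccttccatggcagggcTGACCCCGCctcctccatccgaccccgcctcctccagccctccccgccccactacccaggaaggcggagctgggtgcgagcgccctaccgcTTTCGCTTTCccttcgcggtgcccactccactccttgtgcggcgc
PSME2: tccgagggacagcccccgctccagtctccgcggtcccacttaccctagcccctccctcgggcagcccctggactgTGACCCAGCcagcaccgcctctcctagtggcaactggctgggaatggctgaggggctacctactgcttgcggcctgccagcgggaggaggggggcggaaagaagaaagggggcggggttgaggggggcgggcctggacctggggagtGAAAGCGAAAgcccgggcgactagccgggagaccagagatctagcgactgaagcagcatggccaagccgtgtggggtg
The gamma-activated site, searched as TTCNNNGAA, was in none of these windows and in 11.9% of the 42 against 7.66% of all. The starts of PSMB9 and TAP1, which are read in opposite directions, lie 488 bases apart in these RefSeq records.

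**Figure D2:**
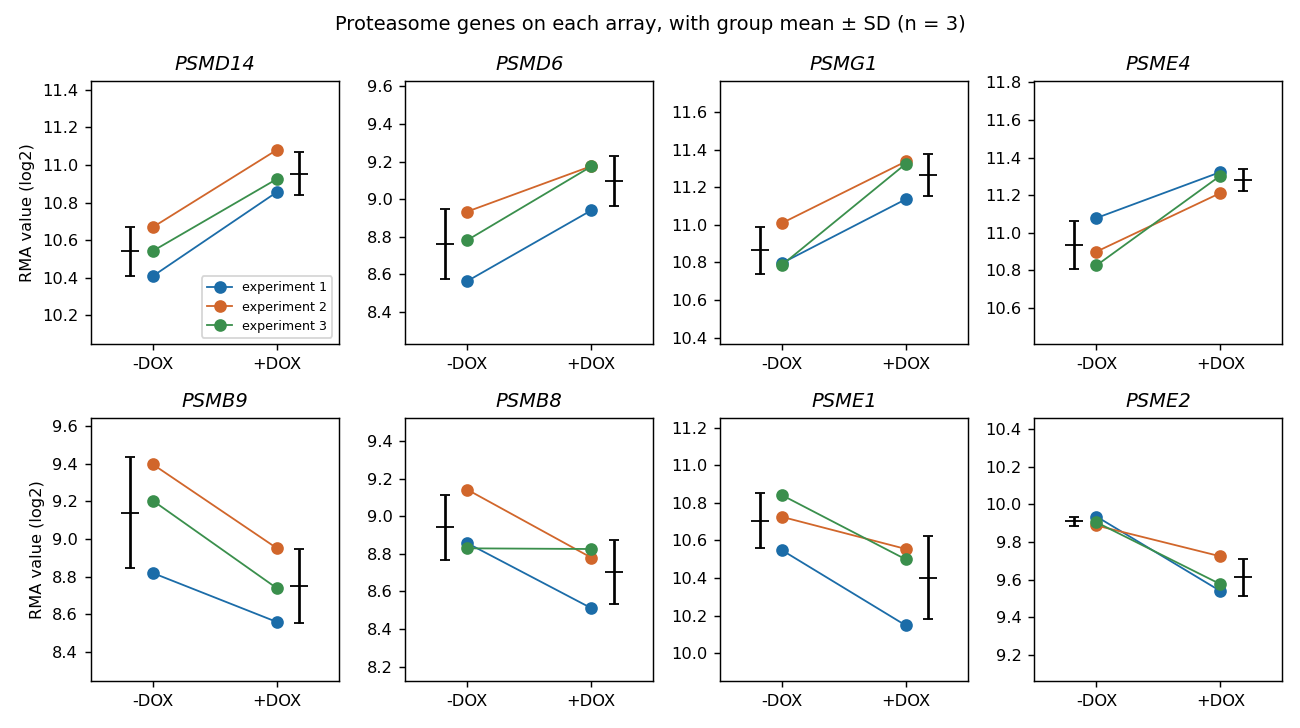
RMA values (y axis, log2) of 8 proteasome genes on each array, untreated and treated arrays of an experiment joined by a line, with group mean and SD (n = 3) in black. Lines of the genes in the upper row all rise, and those of the lower row fall in each experiment, with PSMB8 nearly flat in experiment 3.

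The other activators differed from PSME1 and PSME2. PSME4, a nuclear activator known from histone turnover and DNA repair, rose from 11.08, 10.90 and 10.83 to 11.32, 11.21 and 11.30, with each treated array above each untreated one (change 0.34, SE 0.088, limma adjusted p = 0.0431). It did not pass without pairing (adjusted p = 0.0581). PSME3, which forms a nuclear ring of its own, stood at 11.25, 11.34 and 11.46 against 11.23, 11.60 and 11.42 (change 0.07, interval -0.15 to 0.29). PSMF1, the regulator PI31, had a change of 0.15 that did not pass (adjusted p = 0.381), although its groups did not overlap. Of the 49 probe sets 12.2% had each treated array above each untreated one, close to the 11.4% of all probe sets.

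Among the chaperones that build the core, PSMG1 alone passed. Its values went from 10.80, 11.01 and 10.79 to 11.14, 11.34 and 11.32, with no overlap (1.32-fold, log2 change 0.40, SE 0.088, limma adjusted p = 0.0244). PSMG2, with which PSMG1 forms a dimer, was at -0.03 (SE 0.082), as were PSMG3 and PSMG4, which form another dimer (-0.03, SE 0.102, and -0.03, SE 0.081). The chaperones of the base, PSMD5, PSMD9 and PSMD10, were at 0.13, 0.08 and -0.12 and did not pass. The PSMG1 probe set spans chr21:39468565-39477647 and that of PSME4 chr2:53945075-54051481 in NCBI build 36.

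No call of the 5 held with each experiment left out in turn. With experiment 1, 2 or 3 left out, PSMD14 reached an adjusted p of 0.0678 to 0.081, PSMG1 of 0.0636 to 0.116, PSMD6 of 0.102 to 0.152 and PSME4 of 0.0783 to 0.176, while PSMB9 passed without experiment 1 (adjusted p = 0.0438) and not without experiments 2 or 3 (up to 0.136). No proteasome gene was thus called higher with any experiment left out. The changes kept their sign, at 0.40 to 0.43 for PSMD14 and -0.46 to -0.35 for PSMB9. PSMD6 also missed the threshold without pairing (adjusted p = 0.141). After adjustment the methods' t-test called none of the 5 (adjusted p = 0.206 to 0.293).

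**Figure D3:**
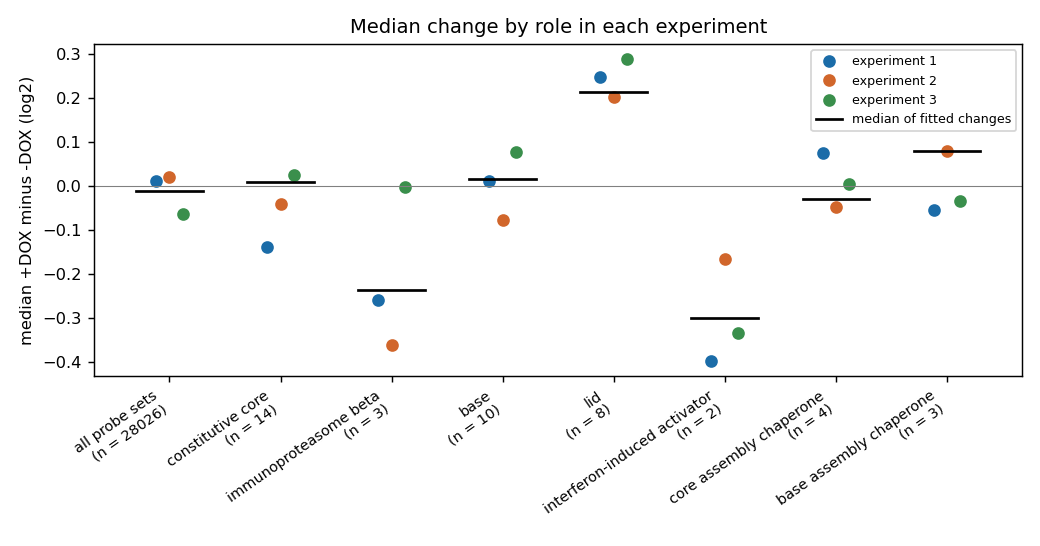
Median change (y axis, treated minus untreated, log2) of the probe sets of each role in experiments 1, 2 and 3 (points) and of the fitted changes (bars), beside all probe sets. Lid medians are above 0.2 in each experiment, those of PSME1 and PSME2 below -0.16, and those of the core, the base and the chaperones lie on both sides of 0.

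Several genes that work with the proteasome but fall outside the symbol rule rose with doxycycline. From a list of 13 such partners 6 rose and none fell (46.2%, against 12.8% of all probe sets passing and 6.14% higher), with a median change of 0.26. This list and those below were chosen with earlier results of these data known, so their shares are descriptions and not independent support. ECPAS, an adaptor of the assembled particle, rose by 0.60 (SE 0.103, limma adjusted p = 0.0103) from 10.13, 10.01 and 9.75 to 10.60, 10.49 and 10.60. AKIRIN2, which brings proteasomes into the nucleus, rose by 0.56 (SE 0.083) from 9.63, 9.85 and 9.84 to 10.22, 10.34 and 10.45. UCHL5, a deubiquitinase of the regulatory particle, rose by 0.55 (SE 0.089) from 9.48, 9.66 and 9.57 to 9.92, 10.19 and 10.26. In all 3 genes each treated array was above each untreated one. The stress-induced proteasome-binding genes ZFAND2A and ZFAND5 rose by 0.50 and 0.39, and PAAF1, which binds free ATPases of the base, by 0.33. The receptor ADRM1 (0.09), the deubiquitinase USP14 (0.01), the core maturation factor POMP (-0.11) and the small lid subunit SEM1 (-0.23) did not pass. With controls kept in the adjustment 3 of the partners passed. Without experiment 2 there were 3 and without experiment 3 there was 1. Of the 6 calls, that of AKIRIN2 held with each experiment left out (adjusted p up to 0.0421), while ECPAS and UCHL5 missed narrowly without experiment 3 (0.0529 and 0.0526). Without pairing the calls of PAAF1 and ZFAND2A were lost (0.106 and 0.0999).

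Among 10 genes that supply ubiquitin or carry tagged proteins to the proteasome, 2 rose and none fell (20%, against 12.8% of all probe sets passing and 6.14% higher). UBQLN1, a shuttle that binds both, rose by 0.44 (SE 0.09, limma adjusted p = 0.0186). RPS27A, a ribosomal fusion gene of ubiquitin with near-identical copies in the genome, rose by 0.84 (SE 0.156), and its untreated values of 10.40, 11.44 and 10.84 spread widely. That call did not hold without experiment 1 or 3 (adjusted p = 0.0605 and 0.0998), and that of UBQLN1 did not hold without experiment 2 or 3 (0.0975 and 0.0981). The RPS27A call was also lost without pairing (adjusted p = 0.0901). The polyubiquitin gene UBB was at -0.07 and UBA1 at -0.22 (limma adjusted p = 0.197), and neither passed. For UBA1 each treated array was below each untreated one, as for 13.5% of all probe sets. A positive change was seen in 8 of the 10 genes.

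In the pathway of NFE2L1 4 of 14 genes rose and none fell (28.6%, against 12.8% of all probe sets passing and 6.14% higher). NFE2L1 rose by 0.56 (SE 0.088, limma adjusted p = 0.00731) from 10.80, 10.67 and 10.44 to 11.25, 11.22 and 11.12, with no overlap of the groups. NGLY1, the enzyme that strips sugars from the NFE2L1 protein as part of its activation, rose by 0.78 (SE 0.126), SEL1L, an adaptor of the retrotranslocation complex in the endoplasmic reticulum, by 0.88 (SE 0.086) and MAFG, a small Maf partner, by 0.50 (SE 0.108). Calls of NFE2L1 and NGLY1 were lost without experiment 3 (adjusted p = 0.0503 and 0.0526), as was that of MAFG, which left SEL1L. NFE2L2 (0.11, adjusted p = 0.567), the protease DDI2 (0.10) and the segregase VCP (-0.23) did not pass. Among 16 partners of the immunoproteasome in antigen presentation 1 rose and 1 fell (12.5%, against 12.8% of all probe sets passing), a share close to that of the array. IRF1, a transcription factor known to act on PSMB9, rose by 0.41 (SE 0.082, limma adjusted p = 0.018), and the peptide-loading protein TAPBP fell by 0.40 (SE 0.081, adjusted p = 0.0184). TAP1, the peptide transporter gene beside PSMB9, stood at 9.94, 10.03 and 9.90 against 9.77, 9.57 and 9.56, lower with no overlap but short of the threshold (-0.32, adjusted p = 0.0597). TAP2, its partner in the transporter, and the peptide-trimming enzyme ERAP1 came as close to the threshold in the opposite direction (0.30 and 0.29, adjusted p = 0.0567 and 0.0573), each higher on the treated array of each experiment. The TAPBP call was lost with any experiment left out (adjusted p of 0.0589 to 0.106) and that of IRF1 without experiment 2 or 3 (up to 0.0991) or without pairing (0.106).

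Other large complexes offer a scale for these values. The COP9 signalosome and the translation factor eIF3 share their subunit folds with the lid, and the CCT chaperonin is an unrelated ring. Over all probe sets 6.14% were called higher and 46.3% had a positive change. COP9 had 1 rise among 10 genes (COPS2, 0.41) and a median change of 0.11. Of 13 eIF3 genes 3 rose (EIF3J by 0.50, EIF3M by 0.47 and EIF3D by 0.43), all 13 had a positive change, and the median was 0.29. Of 8 CCT genes 2 rose (CCT4 by 0.40 and TCP1 by 0.35), all 8 were positive and the median was 0.24. The lid median of 0.21 lay between that of COP9 and those of CCT and eIF3, so a median above that of the array was not particular to the lid. Without experiment 3 none of the COP9, eIF3 or CCT calls held, without experiment 2 a single eIF3 call did (EIF3J, adjusted p = 0.0413), and the CCT calls were lost with any experiment left out. Without pairing the COPS2 and EIF3M calls were lost (adjusted p = 0.207 and 0.189). No test between these lists was made.

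**Figure D4:**
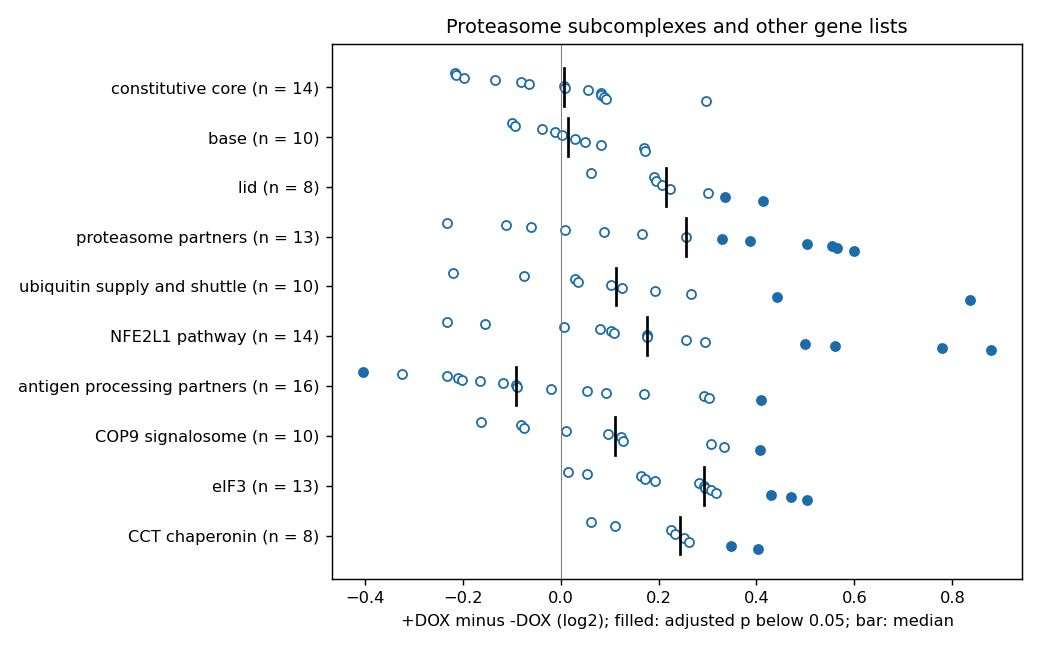
Changes (x axis, treated minus untreated, log2) of single genes in the proteasome core, base and lid and in 7 other lists; filled points passed an adjusted p of 0.05 and bars are medians. Points of the lid, eIF3 and CCT all lie right of 0, with the lid subunit SEM1 placed among the partners. The partners reach 0.60 where no proteasome subunit of the symbol rule exceeds 0.41.

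Variation between experiments was as large as the change with doxycycline for many proteasome genes, as for the array as a whole. The SD over the 3 untreated arrays exceeded the size of the change for 28 of the 49 (57.1%, against 53.9% of all probe sets). The median SD was 0.138 and the median absolute change 0.104, against 0.118 and 0.101 over all probe sets. Experiment 1 gave the lowest untreated value for 37 of the 49, where 40.8% of all probe sets were lowest there among the untreated arrays. It gave the lowest treated value for 41 of the 49, for which the share over all probe sets was not computed. Over the 49 probe sets the changes of 2 experiments correlated at r = 0.425 (1 and 2), 0.710 (1 and 3) and 0.559 (2 and 3), as a description over members that share arrays, against 0.622, 0.579 and 0.658 over all 28026.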

How the data were processed

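The arrays were Affymetrix gene-level arrays of total RNA, and the values deposited by the authors are log2 values from the Robust Multichip Average (RMA), with R 2.11.1 per the submitters' processing notes. Names, coordinates (NCBI build 36, by the versions of the chromosome accessions) and control status came from the authors' workbook, whose log2 values differ from the matrix by at most 5e-09. Of 33297 probe sets, 4428 controls were left out, as were probe sets empty on all arrays (976 in the table), which left 28026.

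Treated and untreated arrays were compared in limma 3.58.1 under R 4.3.3 (lmFit, eBayes), with the experiment as a block and Benjamini-Hochberg adjustment over the 28026. Pairing came from the design text. Deviations of paired arrays from their group means correlated at 0.482, 0.165 and 0.0993. Intervals are 95% and unadjusted. Precision is limited by having 3 arrays a group. The procedure was tested on simulated data with independent noise, no differences between experiments and added changes larger than any seen for the proteasome genes. That test does not show how the procedure performs for changes of the size reported here. With 3 pairs, the smallest two-sided p of an exact sign-flip test is 0.25. Members and lists were chosen with earlier results of these data known. Alternatives for genes and counts of the other lists were added after seeing the data. Every member was accounted for, with values by array for those past the threshold, the cutting subunits and PSME1 to PSME4, and from each other list up to 6 genes past the threshold, beside some that did not pass. List genes were matched by symbol or by older symbols of RefSeq GRCh38.p14. Where several probe sets matched a list gene, only the brightest was read, so others of the same gene are not described. The hairpin's target and some list genes are not reported here.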

Additional observations from a re-analysis of the deposited data

How the results depend on the processing

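Without the replicate block, the number of proteasome probe sets passing was 2 higher (PSMD14 and PSMG1) and 0 lower. Trended and robust variance gave 2 lower, as did leaving out probe sets with a mean log2 below 6. With control probe sets kept in the table, 1 was higher (PSMD14) and 0 lower, and 2447 passed over the array. The methods' t-test gave 0 higher and 0 lower after adjustment, with 0 over the whole array, where 11 proteasome probe sets and 4449 of all had an unadjusted p under 0.05. At its 1% level it gave 1165 in all, 2 higher (PSMD14 and PSMD11) and 0 lower. Leaving out replicate 1, 2 or 3 gave 1355 to 2853 over the array, 0 higher in each case and 0 to 1 lower, and a median change of the proteasome probe sets of 0.0154 to 0.0563. Equal array medians moved all probe sets alike, with the array median at 0.03, and so the proteasome median at 0.0874 and that of the constitutive beta ring at 0.0478. The beta ring median was -0.0271 to 0.0205 with a replicate left out. That of the lid was 0.21 to 0.25 there. No call of a proteasome gene turned its sign. In the other lists, counts of genes passing fell to 0 with the adjusted t-test, and partners fell from 6 to 3 with controls kept and to 1 without replicate 3. With a replicate left out fewer arrays enter the fit; otherwise the cause of these losses was not tested.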
